A study of Homo sapiens with 12 samples.

Results

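Transcripts of glycolysis and of the hypoxia response were followed in A549 cells, a human lung adenocarcinoma epithelial line, and in a derivative of that line named Sm22mut. The 35 genes were taken by name: 3 transporters of glucose or lactate, 9 enzymes of the upper and 8 of the lower part of glycolysis (with lactate dehydrogenase), 3 regulators of flux, the hypoxia-inducible factor subunits HIF1A and EPAS1, and 10 further targets of these factors. All 35 were among the 58830 rows of the table and among the 20456 rows tested. In Sm22mut the site in SNAI1 that the microRNA miR-22 targets was knocked out, by CRISPR editing per the series' title, and WT is the unedited line. Both lines received 10 ng/mL TGFβ, an inducer of epithelial-mesenchymal transition, or were left untreated, and RNA was taken at day 5. The 4 groups were therefore Sm22mut with TGFβ, Sm22mut untreated, WT with TGFβ and WT untreated, with 3 libraries each. These are named biological repeats, with no word on whether they were separate cultures, so a p-value here reflects the scatter among such repeats, which may be technical. The labels name no low-oxygen exposure. Only 1 edited line was measured, and effects of the edit cannot be told apart from those of deriving that line.

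Glycolysis splits glucose into pyruvate, and lactate dehydrogenase turns pyruvate into lactate, which leaves the cell through proton-coupled transporters. Hypoxia-inducible factors are pairs of an alpha subunit (HIF-1α from HIF1A, or HIF-2α from EPAS1) and the partner ARNT. Prolyl hydroxylases of the EGLN family mark the alpha subunits for destruction through VHL when oxygen is plentiful, so alpha subunit activity is set largely at the protein level. When stable, the factors bind the short core ACGTG or GCGTG near genes of glucose uptake, glycolysis, pH control and blood vessel growth. A549 cells, like many tumour lines, run glycolysis actively also in air.

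Values are the authors' normalized counts, which are reads divided by a factor for library size. A difference is called when its Benjamini-Hochberg adjusted p from limma, taken over all 20456 genes, is under 0.05. Log2 fold changes are given ± SE on the scale log2(value + 1), which understates changes of low genes. Libraries held between 84210775 and 111141708 reads. The treatment showed in CDH1, the epithelial cadherin, which lay between 9981 and 10647 with TGFβ against 32369 to 35810 untreated in Sm22mut. In WT it lay between 9000 and 9375 with TGFβ, against 26688 to 30328 untreated. All 6 epithelial markers were tested, of which 5 were called lower and KRT7 higher with TGFβ in both lines (log2 0.52 in Sm22mut and 1.06 in WT). Their summed value was 502500 to 576500 with TGFβ against 625500 to 648900 untreated in Sm22mut, and 486500 to 624500 with TGFβ against 586400 to 605500 untreated in WT. Summed values of 6 fibroblast markers were 1200 to 2016 with TGFβ against 145 to 280.6 untreated, those of 5 endothelial markers 32.6 to 68.92 against 113.6 to 182.6, and those of 6 leukocyte markers 58.83 to 92.33 against 79.75 to 138.2. Single markers went both ways. Of 3 tested endothelial markers 1 was called higher and 2 lower in Sm22mut, and 1 higher and 1 lower in WT. Of 4 tested leukocyte markers 1 was higher and 2 lower in each line. Of 5 tested fibroblast markers 4 were higher in Sm22mut and 5 in WT. Rows were tested where at least 3 libraries reached 10. TEK and NKG7 reached 10 with TGFβ alone, PECAM1 and LYZ untreated alone, and PTPRC in untreated WT alone. COL1A2 stayed below 10 in every WT library. The calls of these markers rest in part on that filter or on very low values, and are only a description. Of all tested genes 32.1% were higher and 30.7% lower in Sm22mut, and 30.8% and 30.9% in WT. The part of these markers in the results was not tested. The T cell marker CD3E was at 0 in every library but repeat 2 of untreated WT (1.648). Fewer cells of a type and less RNA per cell cannot be told apart in such bulk samples. Repeat 2 of untreated WT held its group's lowest value for 28 of the 35 genes, and repeat 2 of untreated Sm22mut for 22. In WT with TGFβ repeat 3 was lowest for 25. Repeat 1 was highest for 20 to 23 genes in every group.

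**Figure D1:**
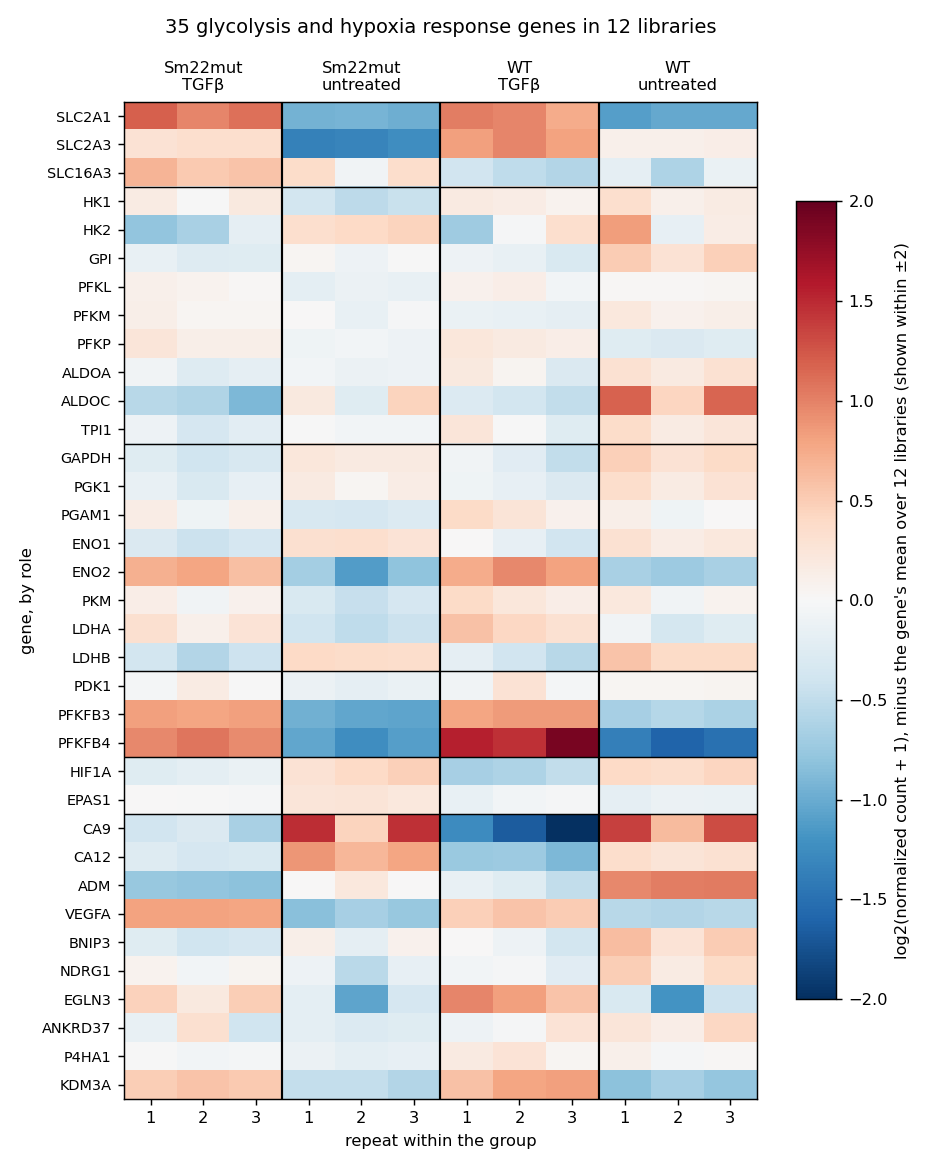
Heat map of the 35 genes (rows, by role) in the 12 libraries (columns, 3 repeats per group). Colour is log2(normalized count + 1) minus the gene's mean over the 12 libraries; red PFKFB4 and SLC2A1 fields stand with TGFβ, and red CA9 fields stand untreated in both lines.

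TGFβ moved many of the 35 genes, and it moved them in both directions. Glucose transporters, the flux regulators PFKFB3 and PFKFB4, ENO2, LDHA, VEGFA, EGLN3 and KDM3A were higher with TGFβ in both lines. GAPDH, PGK1, ENO1, LDHB, the carbonic anhydrases CA9 and CA12, ADM, BNIP3 and HIF1A itself were lower in both. In Sm22mut 16 genes were called higher and 13 lower, where 32.1% of all tested genes were called higher and 30.7% lower. In WT 11 were called higher and 15 lower, beside 30.8% and 30.9% of all tested genes. The median log2 fold change over the 35 genes was 0.17 in Sm22mut and -0.19 in WT, beside 0.03 and 0.02 over all tested genes. The TGFβ comparisons of the lines share no library. Called higher in both were 11 genes and called lower in both were 11. NDRG1 was called in opposite directions, 6 genes were called in Sm22mut and not in WT, 3 in WT and not in Sm22mut, and 3 (PDK1, ANKRD37 and P4HA1) in neither. Such counts across both lines were not made for all tested genes, so they are not read as particular to this list. The groups did not overlap for any of the 29 called genes in Sm22mut, and for 23 of the 26 in WT, beside 97.9% and 95.1% of all called genes. Without repeat 2 of both untreated groups, a choice made after seeing the data, 15 genes were higher and 13 lower in Sm22mut, and 10 higher and 16 lower in WT.

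**Figure D2:**
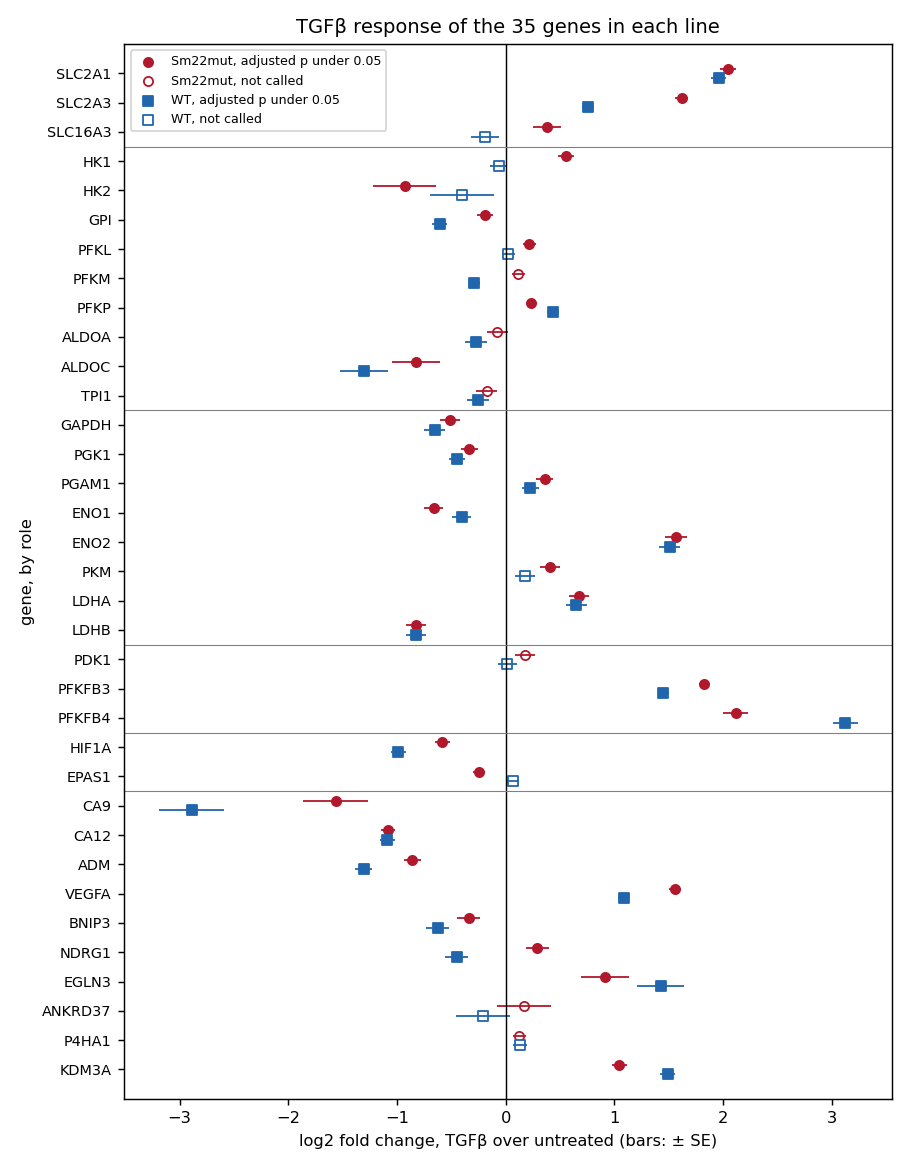
Log2 fold change of TGFβ over untreated (x axis, bars ± SE) for each of the 35 genes (y axis, by role) in Sm22mut (red circles) and WT (blue squares), filled where the adjusted p was under 0.05. PFKFB4 lies farthest right in both lines, at 2.12 in Sm22mut and 3.13 in WT, and CA9 farthest left, at -1.57 and -2.89.

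Of the 35 genes, 8 were called and changed at least 2-fold the same way in both lines: SLC2A1, ENO2, PFKFB3, PFKFB4, VEGFA and KDM3A were higher, and CA9 and CA12 lower. The share of all tested genes past this cut was not counted, so the number serves only to choose genes to show. The promoters of the 5 that RefSeq lists with a single start are shown because these genes mark the extremes of the response, and because all are textbook targets of hypoxia-inducible factors. Each stretch covers 250 bases before to 50 after the start on build GRCh38.p14, written 5′ to 3′ on the gene's strand. Capitals mark the factor's core, ACGTG or GCGTG on either strand (on the opposite strand it reads CACGT or CACGC). The promoter of SLC2A1 is from chr1:42958819-42959118 (minus strand), ENO2 from chr12:6914330-6914629 (plus), PFKFB4 from chr3:48556754-48557053 (minus), CA9 from chr9:35673678-35673977 (plus) and CA12 from chr15:63381797-63382096 (minus).
SLC2A1: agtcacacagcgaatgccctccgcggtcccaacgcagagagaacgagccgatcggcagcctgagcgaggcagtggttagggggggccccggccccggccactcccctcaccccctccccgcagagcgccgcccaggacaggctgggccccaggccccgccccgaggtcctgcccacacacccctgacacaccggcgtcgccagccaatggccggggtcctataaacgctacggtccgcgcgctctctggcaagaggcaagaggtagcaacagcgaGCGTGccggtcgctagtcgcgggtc
ENO2: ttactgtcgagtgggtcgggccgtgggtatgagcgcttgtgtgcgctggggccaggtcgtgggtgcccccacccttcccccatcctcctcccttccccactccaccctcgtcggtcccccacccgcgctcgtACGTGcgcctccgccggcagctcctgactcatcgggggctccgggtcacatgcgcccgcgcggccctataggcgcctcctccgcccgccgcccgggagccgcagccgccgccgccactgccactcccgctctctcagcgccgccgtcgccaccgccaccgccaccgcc
PFKFB4: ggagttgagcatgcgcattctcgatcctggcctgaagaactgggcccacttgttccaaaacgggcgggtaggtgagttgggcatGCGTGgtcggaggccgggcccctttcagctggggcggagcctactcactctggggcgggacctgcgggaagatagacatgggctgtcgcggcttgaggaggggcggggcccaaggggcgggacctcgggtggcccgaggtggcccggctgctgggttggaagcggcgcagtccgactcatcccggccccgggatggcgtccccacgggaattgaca
CA9: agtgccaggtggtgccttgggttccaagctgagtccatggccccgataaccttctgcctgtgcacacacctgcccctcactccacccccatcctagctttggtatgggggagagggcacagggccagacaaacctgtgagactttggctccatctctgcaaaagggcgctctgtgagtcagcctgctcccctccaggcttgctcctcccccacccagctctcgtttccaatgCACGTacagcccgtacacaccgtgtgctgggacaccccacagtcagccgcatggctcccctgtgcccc
CA12: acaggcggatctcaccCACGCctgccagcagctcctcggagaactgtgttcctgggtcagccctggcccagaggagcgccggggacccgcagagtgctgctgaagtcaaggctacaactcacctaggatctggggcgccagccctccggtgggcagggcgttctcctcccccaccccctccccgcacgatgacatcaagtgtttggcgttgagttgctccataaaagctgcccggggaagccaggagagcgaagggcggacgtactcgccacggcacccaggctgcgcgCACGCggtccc
All 5 windows hold the core, 2 times in CA12, although the first 3 genes rose with TGFβ and the other two fell. In CA9 the match begins 18 bases before the start. Of the 35 genes, 32 had a promoter entry and 20 of these a single start. The core stood in 18 of those 20 windows (90.0%), beside 47.3% of the 22114 single-start windows of the genome. The list was chosen in part for targets of these factors, and the windows were not matched for base composition. The 2 shares are therefore a description and not a test. Of these genes, all 11 called lower in Sm22mut held it, as did 5 of the 7 called higher. In WT it stood in 10 of 10 called lower and 3 of 5 called higher. EGLN3 and PGAM1 were the single-start genes without it, which says only that these letters are not in their windows. ACGTG is also part of the E-box CACGTG. The letters CAGAC (either strand), the core bound by SMAD proteins downstream of TGFβ, stood in 6 of the 20 windows (30.0%) and in 45.2% of all such windows. A match is a description of the letters, not of binding.

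Glucose transporters rose with TGFβ in both lines. SLC2A1, which encodes GLUT1, the widespread basal glucose transporter (chromosome 1, 42925353 to 42958868), had 20603, 17656 and 19227 normalized counts in Sm22mut with TGFβ, against 4677, 4689 and 4554 in untreated Sm22mut. Its WT values were 18161, 17699 and 14957 with TGFβ, against 4186, 4414 and 4426 untreated. Treated libraries all stood above untreated ones, and the log2 fold change was 2.04 ± 0.07 in Sm22mut (adjusted p = 6.42e-13) and 1.96 ± 0.07 in WT (adjusted p = 1.19e-12). SLC2A3, the high-affinity transporter GLUT3 (chromosome 12, 7919230 to 7936187), had 33459, 34371 and 34322 in Sm22mut with TGFβ, against 10730, 10926 and 11563 untreated. WT libraries held more of it throughout, 48100, 53715 and 47584 with TGFβ against 29264, 29073 and 29823 untreated. SLC2A3 was thus 3.08-fold higher with TGFβ in Sm22mut (log2 1.62 ± 0.06) and 1.69-fold higher in WT (log2 0.76 ± 0.06). SLC16A3, the lactate exporter MCT4, had 2043, 1828 and 1882 in Sm22mut with TGFβ, against 1632, 1212 and 1613 untreated. It rose there by log2 0.38 ± 0.13 (adjusted p = 0.018). That call was lost without repeat 1 of Sm22mut with TGFβ (adjusted p = 0.0662) or repeat 2 of untreated Sm22mut (log2 0.24, adjusted p = 0.121). SLC16A3 in WT had 968.4, 891.7 and 842.2 with TGFβ, against 1126, 823.9 and 1159 untreated, groups that overlapped (log2 -0.19 ± 0.13). Without repeat 2 of untreated WT that difference was -0.35 and called (adjusted p = 0.0214). SLC16A3 shares 482 exonic bases with CSNK1D on the opposite strand. CSNK1D averaged 14940 over all libraries, against 1335 for SLC16A3. With TGFβ CSNK1D differed by log2 -0.01 ± 0.05 in Sm22mut and 0.27 ± 0.05 in WT. Untreated, it was higher in Sm22mut than in WT by 0.26 ± 0.05. The part of its reads in the SLC16A3 values was not tested.

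**Figure D3:**
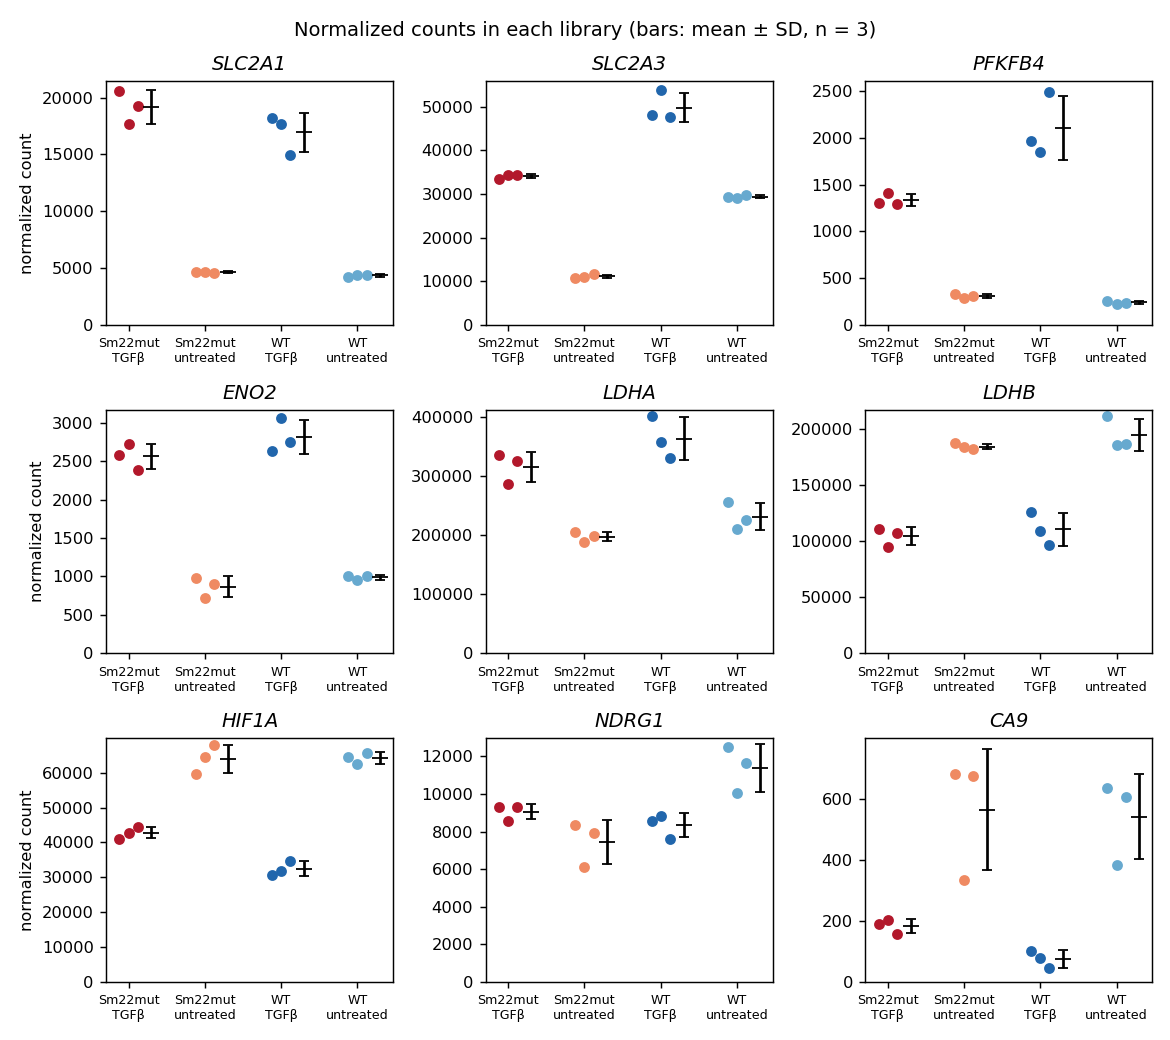
Normalized counts (y axes, from 0) of 9 genes in every library, with mean ± SD (n = 3) beside the points; Sm22mut is in red and orange and WT in dark and light blue. SLC2A1 and PFKFB4 show no overlap between treated and untreated libraries, LDHA and LDHB moved in opposite directions, and NDRG1 stood higher with TGFβ in Sm22mut and lower with TGFβ in WT.

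The strongest rise of the list was in the flux regulators. PFKFB3 and PFKFB4 encode bifunctional enzymes that set the level of fructose-2,6-bisphosphate, the activator of phosphofructokinase. PFKFB4 (chromosome 3, 48517684 to 48563136) had 1307, 1406 and 1287 normalized counts in Sm22mut with TGFβ, against 325.0, 283.2 and 312.2 untreated, a 4.34-fold rise. WT libraries had 1969, 1843 and 2493 with TGFβ against 258.2, 220.0 and 237.4 untreated, 8.72-fold. PFKFB4 shares 289 exonic bases with UCN2 on the same strand, so reads of that stretch could come from either gene. UCN2, named after its values were seen, rose by log2 3.49 ± 0.21 in Sm22mut and 3.77 ± 0.21 in WT. PFKFB3 was far more abundant, with 47114, 46380 and 47142 in Sm22mut with TGFβ against 13731, 12989 and 12892 untreated. WT held 46051, 48466 and 47997 with TGFβ, against 16791, 18017 and 17308 untreated. PFKFB3 rose by log2 1.83 ± 0.05 in Sm22mut and 1.45 ± 0.05 in WT. Per kilobase of exon it made up 97.2% of the pair in Sm22mut with TGFβ, 97.7% in untreated Sm22mut, 95.8% in WT with TGFβ and 98.6% in untreated WT. PDK1, a kinase that inhibits pyruvate dehydrogenase, was called in neither line. It ranged from 1452 to 1669 in Sm22mut with TGFβ against 1316 to 1381 untreated (log2 0.18 ± 0.09, adjusted p = 0.0983), and from 1426 to 1838 with TGFβ against 1534 to 1557 in WT. The Sm22mut difference was called without repeat 2 of WT with TGFβ (adjusted p = 0.0434), a library that changed only the shared spread.

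Enzymes of the upper part of glycolysis changed less than 2-fold with TGFβ, apart from ALDOC in WT. In Sm22mut 3 of the 9 were called higher and 3 lower, beside 32.1% and 30.7% of all tested genes. In WT 1 was higher and 5 lower, beside 30.8% and 30.9%. PFKP, the platelet form of phosphofructokinase and the main form here, rose in both lines, by log2 0.24 ± 0.05 in Sm22mut and 0.44 ± 0.05 in WT. ALDOC, the brain form of aldolase, fell in both. It had 97.09, 93.68 and 76.22 in Sm22mut with TGFβ, against 164.0, 121.2 and 195.4 untreated. ALDOC in WT had 117.6, 110.3 and 101.7 with TGFβ, against 324.0, 193.6 and 321.2 untreated. ALDOC made up at most 0.486% of the aldolase pair per kilobase in any library. GPI, which turns glucose-6-phosphate into fructose-6-phosphate, was lower by log2 -0.19 ± 0.07 in Sm22mut and -0.61 ± 0.07 in WT, called in both. The Sm22mut call of GPI was lost without any of 4 libraries (repeats 2 and 3 with TGFβ, repeats 1 and 3 untreated; adjusted p 0.0772 to 0.122). HK1, the housekeeping hexokinase, rose by log2 0.56 ± 0.08 in Sm22mut, with 4463, 3941 and 4552 with TGFβ against 3103, 2762 and 2934 untreated. In WT its groups overlapped, 4499, 4415 and 4181 with TGFβ against 5009, 4271 and 4439 untreated (log2 -0.06 ± 0.08, 0.02 after quantile normalization and 0.003 without repeat 1 of untreated WT). HK2, the inducible hexokinase, was low, at 45.94 to 70.53 in Sm22mut with TGFβ against 101.1 to 109.5 untreated (log2 -0.93 ± 0.29, adjusted p = 0.0116). In WT it lay between 48.36 and 100.9 with TGFβ and between 70.85 and 143.6 untreated (log2 -0.40 ± 0.29). PFKL, the liver phosphofructokinase, rose by log2 0.22 ± 0.06 in Sm22mut. PFKM, the muscle form, differed by log2 0.12 ± 0.06 in Sm22mut, which was called only after quantile normalization (0.14, adjusted p = 0.0484), and fell by 0.29 ± 0.06 in WT. PFKM shares 628 exonic bases with SENP1 on the opposite strand. ALDOA, the main aldolase, and TPI1, triose phosphate isomerase, fell in WT by log2 0.27 ± 0.10 and 0.25 ± 0.10 although their groups overlapped. Without repeat 3 of WT with TGFβ these differences were -0.13 and -0.13 (adjusted p 0.109 and 0.176). Without repeat 1 or 3 of untreated WT they were not called either (0.0676 to 0.142), and TPI1 also not without repeat 2 of WT with TGFβ (0.0822). In Sm22mut ALDOA differed by -0.08 ± 0.10 and TPI1 by -0.17 ± 0.10, neither called. After quantile normalization both were (-0.22 and -0.29, adjusted p 0.0189 and 0.00325). TPI1 was also called there with equal library totals (adjusted p = 0.0219), and without repeat 1 (0.0457) or 3 (0.0474) of WT with TGFβ.

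In the lower part of glycolysis paralogs parted. ENO1, the abundant enolase, had 169067, 152100 and 162490 in Sm22mut with TGFβ against 257306, 258782 and 248078 untreated, a fall of log2 0.66 ± 0.09. ENO1 in WT had 205529, 183584 and 157851 with TGFβ against 255193, 228437 and 236890 untreated, a fall of 0.40 ± 0.09. ENO2, the neuronal enolase, rose in both lines instead. It had 2583, 2717 and 2387 in Sm22mut with TGFβ, against 981.1, 721.9 and 901.6 untreated (log2 1.57 ± 0.10). WT held 2629, 3055 and 2750 with TGFβ, against 1003, 947.5 and 1007 untreated (log2 1.51 ± 0.10). ENO2 still made up only 1.93 ± 0.20% of enolase per kilobase in Sm22mut with TGFβ, against 0.419 ± 0.067% untreated, and 1.89 ± 0.29% in WT with TGFβ, against 0.504 ± 0.020% untreated (SD, n = 3). GAPDH, often used as a reference transcript, fell by log2 0.51 ± 0.10 in Sm22mut and 0.65 ± 0.10 in WT. Its libraries held 197430, 177505 and 187330 in Sm22mut with TGFβ against 273189, 263209 and 263558 untreated, and 221445, 199210 and 165702 in WT with TGFβ against 324937, 286115 and 305106 untreated. The treated and untreated libraries of GAPDH did not overlap in either line. PGK1, the first ATP-forming step, fell by 0.33 ± 0.08 in Sm22mut and 0.45 ± 0.08 in WT. PGAM1, phosphoglycerate mutase, rose by 0.36 ± 0.08 in Sm22mut and by 0.23 ± 0.08 in WT. In WT its groups overlapped, and the call was lost without repeat 1 or 2 of WT with TGFβ or repeat 2 or 3 of untreated WT (adjusted p 0.0528 to 0.0970). PKM, pyruvate kinase, rose by 0.41 ± 0.09 in Sm22mut. In WT PKM differed by 0.18 ± 0.09, which was not called but was without repeat 3 of WT with TGFβ (adjusted p = 0.0337) or repeat 1 of untreated WT (0.0476).

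Lactate dehydrogenase transcripts shifted between subunits. LDHA encodes the M subunit, favoured in glycolytic tissue, and LDHB the H subunit, favoured where lactate is used. LDHA (chromosome 11, 18394563 to 18408425) had 335748, 287827 and 326360 normalized counts in Sm22mut with TGFβ, against 204876, 189221 and 199609 untreated. LDHA in WT had 402754, 357668 and 330396 with TGFβ, against 256532, 211419 and 226470 untreated. LDHA rose by log2 0.68 ± 0.10 in Sm22mut and 0.65 ± 0.10 in WT. LDHB (chromosome 12, 21635342 to 21657842) had 110800, 95274 and 107000 in Sm22mut with TGFβ, against 187261, 183721 and 182564 untreated. WT libraries held 126234, 108938 and 96559 with TGFβ, against 211774, 186188 and 186635 untreated. LDHB fell by log2 0.83 ± 0.09 in Sm22mut and 0.82 ± 0.09 in WT. Per kilobase of exon, LDHA made up 59.3 ± 0.12% of the pair in Sm22mut with TGFβ, against 34.0 ± 0.78% untreated. In WT it made up 61.3 ± 0.83% with TGFβ, against 36.3 ± 0.87% untreated (SD, n = 3). The lengths join all annotated exons of a gene (6210 bases for LDHA, 2983 for LDHB), not those of the expressed transcript. The level of the share and the size of its rise depend on them, and the direction of its change with TGFβ does not. In normalized counts LDHA stood above LDHB in every untreated library too. A share of 2 genes does not depend on the scaling of a library. An exact two-sided permutation test of 3 against 3 libraries cannot go below p = 0.1, and the groups did not overlap. The 17 enzyme transcripts together made up 1.38 ± 0.06% of all counts in Sm22mut with TGFβ and 1.56 ± 0.05% untreated, and 1.57 ± 0.14% in WT with TGFβ and 1.75 ± 0.10% untreated.

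**Figure D4:**
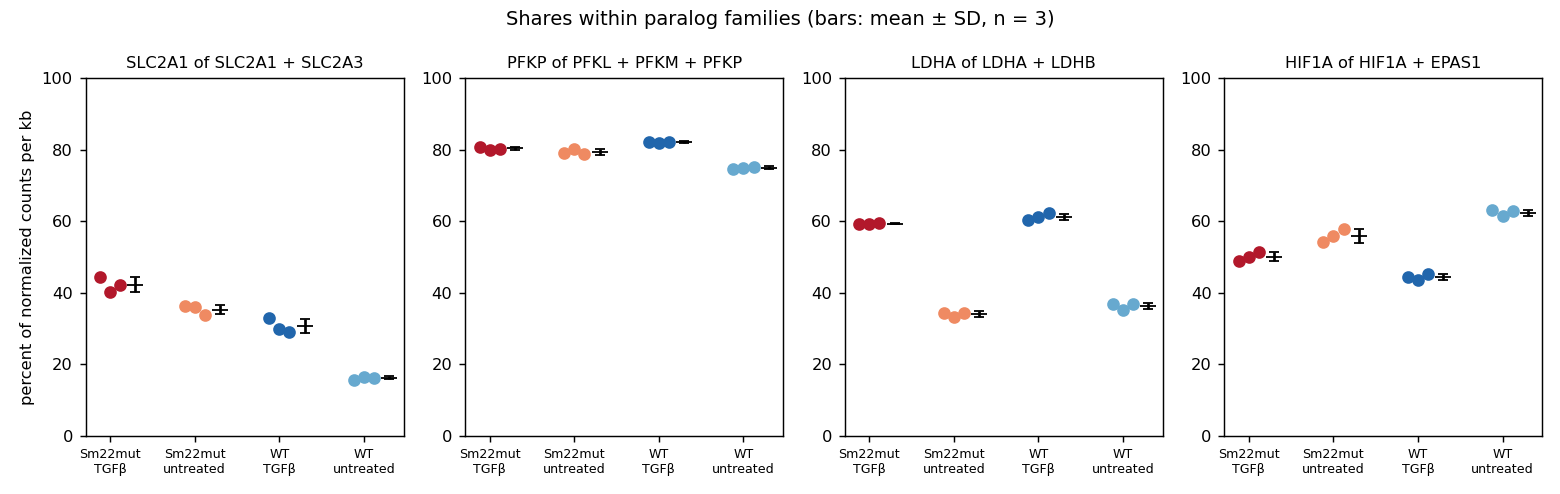
Share of 1 paralog in its family (y axis, percent of normalized counts per kilobase of exon) in each library, with mean ± SD (n = 3); Sm22mut is in red and orange and WT in dark and light blue. The LDHA share stood near 60% in all treated and near 35% in all untreated libraries, while the HIF1A share was lower with TGFβ in both lines. The level of a share depends on the exon lengths, which join all annotated exons of a gene.

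Transcripts of the hypoxia-inducible factors were not called higher with TGFβ in either line. HIF1A (chromosome 14, 61695513 to 61748258) had 41111, 42830 and 44405 in Sm22mut with TGFβ, against 59765, 64555 and 67834 untreated. HIF1A in WT had 30759, 31888 and 34773 with TGFβ, against 64589, 62464 and 65671 untreated. HIF1A fell by log2 0.58 ± 0.07 in Sm22mut (adjusted p = 8.39e-07) and by 0.99 ± 0.07 in WT (adjusted p = 1.51e-09). EPAS1 fell slightly in Sm22mut, to 61006, 60554 and 59641 with TGFβ, against 71825, 72542 and 69893 untreated (log2 -0.24 ± 0.06). In WT its groups overlapped, 54486, 58467 and 59558 with TGFβ against 53570, 55692 and 55081 untreated (log2 0.07 ± 0.06, and -0.03 after quantile normalization). HIF1A made up 50.1 ± 1.3% of the alpha subunit transcripts per kilobase in Sm22mut with TGFβ, against 55.9 ± 1.9% untreated. In WT it made up 44.4 ± 0.84% with TGFβ, against 62.4 ± 0.92% untreated (SD, n = 3). Protein levels were not measured here.

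The 10 further targets split. VEGFA, the vascular endothelial growth factor, KDM3A, a histone demethylase, and EGLN3, a prolyl hydroxylase that acts back on the factors, rose in both lines. VEGFA had 29545, 29579 and 29360 in Sm22mut with TGFβ, against 9503, 10619 and 9964 untreated (log2 1.56 ± 0.05). VEGFA in WT had 23545, 24986 and 24125 with TGFβ, against 11474, 11312 and 11451 untreated (log2 1.09 ± 0.05). KDM3A rose by 1.05 ± 0.07 in Sm22mut and by 1.49 ± 0.07 in WT. EGLN3 had 2890, 2417 and 2954 in Sm22mut with TGFβ, against 1826, 1013 and 1666 untreated (log2 0.91 ± 0.22). WT held 4145, 3693 and 3112 with TGFβ, against 1698, 912.9 and 1576 untreated (log2 1.43 ± 0.22). The lowest untreated value of EGLN3 was repeat 2 in both lines, and without those libraries the rise was 0.65 in Sm22mut and 1.15 in WT, called in both. CA9 and CA12, membrane carbonic anhydrases that handle acid outside the cell, fell instead. CA9 (chromosome 9, 35673928 to 35681159) had 187.9, 201.4 and 155.9 in Sm22mut with TGFβ, against 683.0, 334.7 and 676.0 untreated (log2 -1.57 ± 0.30). In WT it had 102.2, 76.71 and 44.55 with TGFβ, against 635.0, 382.3 and 606.9 untreated (log2 -2.89 ± 0.30). No treated library of CA9 reached the lowest untreated one. CA9 shares 643 exonic bases with ARHGEF39 on the opposite strand. ARHGEF39, named after its values were seen, averaged 1324 over all libraries and differed by -0.30 ± 0.09 in Sm22mut and -0.27 ± 0.09 in WT. CA12, the more abundant anhydrase, had 12911, 12226 and 12457 in Sm22mut with TGFβ, against 28548, 24493 and 26619 untreated. WT held 9255, 9361 and 8253 with TGFβ, against 19598, 18491 and 18936 untreated. The fall of CA12 was log2 1.08 ± 0.07 in Sm22mut and 1.09 ± 0.07 in WT. ADM, the vasodilator peptide adrenomedullin, fell by 0.86 ± 0.08 in Sm22mut and by 1.31 ± 0.08 in WT. BNIP3, a mitophagy receptor, fell by 0.34 ± 0.11 in Sm22mut, a call lost without repeat 1 of untreated Sm22mut (adjusted p = 0.0567), and by 0.63 ± 0.11 in WT. Its 39 annotated pseudogenes summed to at most 3.27% of it, so a part of its reads is uncertain. P4HA1, a collagen prolyl hydroxylase, differed by 0.13 ± 0.06 in both lines and was not called. It was called in WT after quantile normalization (adjusted p = 0.00978), and without repeat 3 of WT with TGFβ in WT (0.00806) and in Sm22mut (0.0387). ANKRD37, an ankyrin repeat protein, stayed low, between 37.54 and 66.60 in every library, and shares 909 exonic bases with UFSP2 on the opposite strand. UFSP2 averaged 2013 over all libraries, against 50.5 for ANKRD37.

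NDRG1, a stress-induced target, changed in opposite directions. It had 9321, 8583 and 9294 in Sm22mut with TGFβ, against 8336, 6117 and 7924 untreated, and rose by log2 0.29 ± 0.10 (adjusted p = 0.0219). In WT it had 8582, 8802 and 7606 with TGFβ, against 12526, 10032 and 11626 untreated, and fell by 0.45 ± 0.10 (adjusted p = 0.00137). Treated libraries stood above all untreated ones in Sm22mut and below all of them in WT. The rise of NDRG1 in Sm22mut was 0.16 and not called without repeat 2 of untreated Sm22mut (adjusted p = 0.156), and was not called without repeat 1 or 3 of Sm22mut with TGFβ (0.0635 and 0.0668) or with equal library totals (0.0642). The difference between the lines in the response, 0.74 ± 0.15, was called under every alternative run.

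Without TGFβ the edited line had lower transcript levels for much of the list. Sm22mut untreated was lower than WT untreated for 16 of the 35 genes and higher for 6, beside 17.5% and 14.3% of all tested genes. The median log2 difference was -0.19, beside 0.002 over all tested genes. This comparison and those of TGFβ share the untreated libraries. Groups did not overlap for 21 of the 22 called genes, ALDOC being the exception, beside 97.0% of all called genes. The largest difference was that of SLC2A3, with 10730, 10926 and 11563 in Sm22mut against 29264, 29073 and 29823 in WT (log2 -1.41 ± 0.06, adjusted p = 2.9e-10). SLC2A1 instead stood close, 4677, 4689 and 4554 in Sm22mut against 4186, 4414 and 4426 in WT, and was not called. SLC2A1 therefore made up 35.3 ± 1.2% of the pair per kilobase in Sm22mut and 16.2 ± 0.41% in WT (SD, n = 3). ADM was lower by 0.93 ± 0.08, with 6356, 7265 and 6340 in Sm22mut against 12224, 12778 and 13002 in WT. HK1 (log2 -0.64 ± 0.08), NDRG1 (-0.62 ± 0.10), BNIP3 (-0.46 ± 0.11), GPI (-0.45 ± 0.07), PKM (-0.43 ± 0.09), PFKFB3 (-0.40 ± 0.05), ALDOA (-0.35 ± 0.10) and PGAM1 (-0.32 ± 0.08) were also lower in Sm22mut. SLC16A3 was higher in Sm22mut (0.52 ± 0.13), as were CA12 (0.48 ± 0.07) and EPAS1 (0.38 ± 0.06). HIF1A and CA9 overlapped between the untreated lines and were not called.

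Of these 22 calls, 9 were lost under at least 1 alternative. Leaving out a single library ended those of ALDOC (log2 -0.79, adjusted p up to 0.0694 without Sm22mut repeat 2, WT repeat 1 or WT repeat 3), KDM3A (0.24, 0.0564 without WT repeat 1) and VEGFA (-0.19, 0.0747 without Sm22mut repeat 1). The calls of PFKFB4 (0.36, up to 0.0817 without Sm22mut repeat 1 or 3, or WT repeat 2 or 3) and PFKP (0.18, up to 0.0676 without Sm22mut repeat 1 or 2, or WT repeat 2) were lost as well. So were those of PFKM (-0.19, up to 0.116 without Sm22mut repeat 2 or WT repeat 1) and P4HA1 (-0.19, up to 0.117 without Sm22mut repeat 2 or 3, or WT repeat 1 or 3). TPI1 (-0.30, up to 0.134) lost its call without any untreated library but WT repeat 2, and PFKL (-0.18, up to 0.102) without any of the 6. Without repeat 2 of both untreated groups 4 genes were higher and 12 lower.

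With TGFβ fewer of the genes differed between the lines. Sm22mut was higher for 6 and lower for 3, beside 7.38% and 4.32% of all tested genes, with a median of -0.08 beside 0.01. The lower count depends on the processing: it was 5 with equal library totals, 5 with DESeq2 on recovered reads, 6 after quantile normalization and 8 without repeat 3 of WT with TGFβ. SLC16A3 stood out, with 2043, 1828 and 1882 in Sm22mut against 968.4, 891.7 and 842.2 in WT (log2 1.09 ± 0.13, adjusted p = 5.46e-05). CA9 had 187.9, 201.4 and 155.9 in Sm22mut against 102.2, 76.71 and 44.55 in WT (log2 1.35 ± 0.30, adjusted p = 0.00791). HIF1A was 1.32-fold higher in Sm22mut, CA12 1.40-fold and VEGFA 1.22-fold. PFKM was higher by 0.22 ± 0.06, a call lost without repeat 1 or 3 of Sm22mut or repeat 2 of WT (adjusted p 0.0598 to 0.0938). SLC2A3 (log2 -0.55 ± 0.06) and ADM (-0.48 ± 0.08) were lower in Sm22mut here as in untreated cells, and PFKFB4 (-0.65 ± 0.11) was lower here but higher in untreated Sm22mut (0.36). KDM3A (-0.20 ± 0.07, adjusted p = 0.0624) and P4HA1 (-0.20 ± 0.06, adjusted p = 0.0529) were not called. KDM3A was called after quantile normalization (0.0379), by DESeq2 (0.031) and without repeat 1 of WT with TGFβ (log2 -0.28, adjusted p = 0.00728). P4HA1 was called with equal library totals (0.0148), TMM factors (0.0351) or quantile normalization (0.0275), by edgeR (0.037) and DESeq2 (0.0219), and without repeat 3 of WT with TGFβ (-0.26, 0.00515). Of the 22 genes called apart untreated, 15 were not called with TGFβ, 7 were called in both conditions, and PFKM, PFKFB4 and VEGFA of these changed direction. CA9 and HIF1A were called with TGFβ and not untreated. Such counts across both conditions were not made for all tested genes, so they are not read as particular to this list. The groups did not overlap for any of the 9 called genes, beside 96.7% of all called genes.

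**Figure D5:**
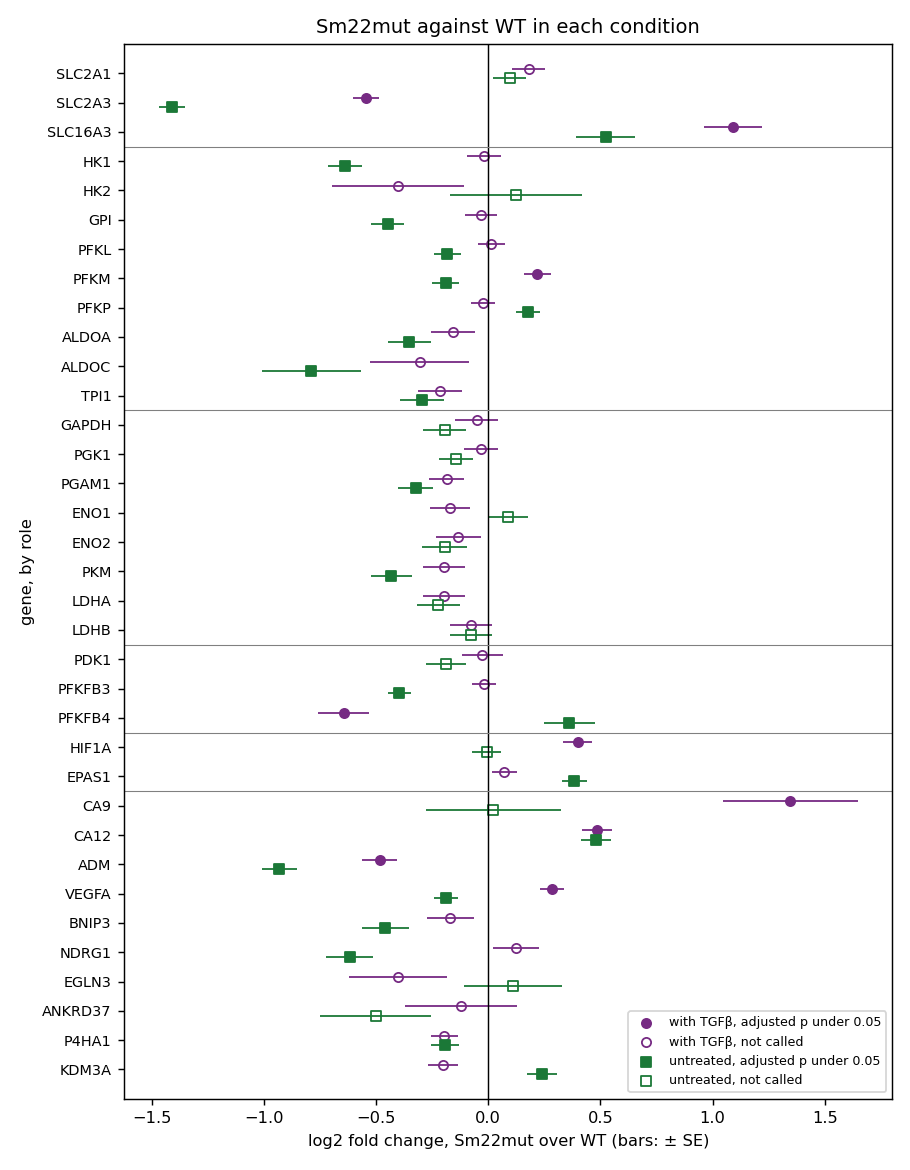
Log2 fold change of Sm22mut over WT (x axis, bars ± SE) for each of the 35 genes (y axis, by role) with TGFβ (purple circles) and untreated (green squares), filled where the adjusted p was under 0.05. SLC2A3 lies farthest left untreated, at -1.41, and CA9 farthest right with TGFβ, at 1.35.

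The response to TGFβ itself was compared between the lines as an interaction, Sm22mut minus WT. It was called positive for 11 genes and negative for 3, beside 10.6% and 6.02% of all tested genes, with a median of 0.16 beside 0.02. SLC2A3 had the smallest adjusted p (0.86 ± 0.08, adjusted p = 8.53e-06). SLC2A3, PFKFB3 (0.38 ± 0.07) and VEGFA (0.47 ± 0.08) rose in both lines and by more in Sm22mut. GPI (0.42 ± 0.10), ADM (0.45 ± 0.11) and HIF1A (0.40 ± 0.09) fell in both lines and by less in Sm22mut. HK1 (0.62 ± 0.11) rose in Sm22mut and was not called in WT, PFKM (0.41 ± 0.08) fell in WT and was not called in Sm22mut, and NDRG1 (0.74 ± 0.15) went opposite ways. Of these 9 genes, all but HIF1A were called lower in Sm22mut than in WT without TGFβ. PFKFB4 (-1.01 ± 0.16) and KDM3A (-0.44 ± 0.10) rose in both lines and by less in Sm22mut, and EPAS1 (-0.31 ± 0.08) fell in Sm22mut and was not called in WT. The interaction shares its untreated libraries with the comparison of the untreated lines, and takes in their difference with the opposite sign. How often both are called was not counted over all tested genes, so it is not read as particular to this list. The calls of CA9 (1.32 ± 0.42, adjusted p = 0.0435) and SLC16A3 (0.57 ± 0.18, adjusted p = 0.0454) were lost without any of 8 libraries (all 3 of Sm22mut with TGFβ, repeat 2 of untreated Sm22mut, repeats 2 and 3 of WT with TGFβ, repeats 1 and 3 of untreated WT). Adjusted p then reached 0.114 for CA9 and 0.120 for SLC16A3, and CA9 was also not called by edgeR (0.0506) or DESeq2 (0.0714) on recovered reads. Nor was CA9 called without the filter on low values (0.0611), with equal library totals (0.0551), quantile normalization (0.0519) or robust variance estimates (0.0525). SLC16A3 lost its call without the filter (0.065), with equal library totals (0.0634) and with TMM factors (0.0542). Without repeat 2 of both untreated groups EPAS1 was not called either (0.0516). The interaction was not called for SLC2A1 (0.08 ± 0.10, and -0.003 without repeat 3 of WT with TGFβ), ENO2 (0.06 ± 0.14, and -0.07 without repeat 2 of untreated Sm22mut) or EGLN3 (-0.51 ± 0.31). SNAI1, whose site was edited, had 1406, 1214 and 1318 in Sm22mut with TGFβ against 512.8, 498.8 and 431.6 untreated, and 958.5, 897.5 and 768.2 in WT with TGFβ against 510.4, 400.4 and 575.8 untreated.

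Neighbouring pathways were counted from lists of published members. For each list, the shares of all tested genes called were 32.1% higher and 30.7% lower in Sm22mut, and 30.8% higher and 30.9% lower in WT. Among 7 genes of the pentose phosphate pathway, 1 was higher and 5 lower with TGFβ in Sm22mut, and none higher and 6 lower in WT. PGD, a dehydrogenase of its oxidative arm, was lower by log2 -0.89 ± 0.07 in Sm22mut and -1.49 ± 0.07 in WT. Of 16 genes of the tricarboxylic acid cycle, 3 were higher and 10 lower in Sm22mut, and 1 higher and 10 lower in WT. SDHB and SDHD, subunits of succinate dehydrogenase, fell by 0.94 ± 0.09 and 0.87 ± 0.09 in Sm22mut and by 0.82 ± 0.09 and 1.07 ± 0.09 in WT. Among 27 tested genes of other glycolytic steps and pyruvate entry, 6 were higher and 14 lower in Sm22mut, and 5 higher and 13 lower in WT. PDK4, a pyruvate dehydrogenase kinase, was lower by -2.85 ± 0.06 in Sm22mut and -3.32 ± 0.06 in WT, while PDP1, the opposing phosphatase, rose by 1.29 ± 0.09 and 0.82 ± 0.09. ENO3, the muscle enolase, rose by 1.43 ± 0.07 and 1.79 ± 0.07. Medians over the 3 lists lay between -0.64 and -0.30, beside 0.02 to 0.03 over all tested genes.

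Of 12 tested genes that carry or regulate sugar or lactate transport, 6 were higher and 4 lower with TGFβ in Sm22mut, and 6 higher and 3 lower in WT. SLC2A5, the fructose transporter, was between 547.0 and 853.1 with TGFβ, against 1.073 to 9.969 untreated. It passed the filter on low values through the treated libraries alone, so no fold is given. SLC2A12, the glucose transporter GLUT12, rose by log2 6.08 ± 0.12 in Sm22mut and 5.23 ± 0.12 in WT. TXNIP and ARRDC4, arrestins that restrain glucose uptake, were lower, by -3.05 ± 0.13 and -2.24 ± 0.10 in Sm22mut and -2.51 ± 0.13 and -1.12 ± 0.10 in WT. In the untreated lines both arrestins were higher in Sm22mut (1.40 ± 0.13 and 1.04 ± 0.10). Among 9 glycogen genes 3 were higher and 5 lower in Sm22mut, and 3 higher and 6 lower in WT. PYGL, the liver phosphorylase, rose by 1.54 ± 0.06 and 1.37 ± 0.06, while PYGB, the brain form, fell by 1.61 ± 0.05 and 1.45 ± 0.05.

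EGLN1, the main oxygen-sensing prolyl hydroxylase, fell by log2 0.78 ± 0.06 in Sm22mut and 0.77 ± 0.06 in WT, and CITED2, which competes with HIF-1α for its coactivator, by 1.67 ± 0.12 and 1.71 ± 0.12. Of the 7 tested genes of this list 4 were higher and 3 lower in Sm22mut, and 3 higher and 3 lower in WT. None of the 7 was called between the untreated lines (14.3% of all tested genes higher, 17.5% lower) or in the interaction (10.6% and 6.02%). With TGFβ, EGLN2 was lower (-0.58 ± 0.13, adjusted p = 0.00799) and VHL higher (0.22 ± 0.05, adjusted p = 0.0144) in Sm22mut than in WT, beside 4.32% and 7.38% of all tested genes. Of 33 tested further targets of hypoxia-inducible factors, 19 were higher and 7 lower in Sm22mut, and 18 higher and 10 lower in WT. ANGPTL4 and LOX, each also a known target of TGFβ signalling, rose in Sm22mut by log2 5.08 ± 0.11 and 5.08 ± 0.16. In WT ANGPTL4 rose by 4.91 ± 0.11, LOX by 4.22 ± 0.16 and LOXL2, a lysyl oxidase like LOX, by 4.36 ± 0.10. LOXL2 rose in Sm22mut too, by 4.32 ± 0.10. STC2, the hormone stanniocalcin 2, was lower by -3.45 ± 0.15 in Sm22mut and -3.85 ± 0.15 in WT, and NFIL3, a transcription factor, by -1.73 ± 0.08 and -1.78 ± 0.08.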

How the data were processed

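The authors deposited a signal of normalized counts per gene for 12 libraries. DESeq2, featureCounts, StringTie and HISAT2 are the tools that the submitters' processing notes list, with the build GRCh38.p14. No version, role or order of these tools is named, and strand use in counting is not known here. Each library's values were whole multiples of 1 step (100% within 0.01), which gave back the reads. Depth ran from 84210775 to 111141708 reads, and counting error weighs most on low genes.

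Rows reaching 10 in 3 or more of the 12 libraries were fitted as log2(value + 1) with limma 3.58.1 (trend, R 4.3.3) in 1 model of 4 group means. It gave 5 two-sided comparisons, adjusted by Benjamini-Hochberg over 20456 rows at 0.05. The table held 28 rows with names turned into dates. The fit was checked on simulated counts that had the same spread setting for every gene. That is simpler than these data, so it checks the running of the fit and not its error rates here. Alternatives covered the pseudocount, filter, scaling, variance estimates, replicate block, the compared groups alone, each library left out, and edgeR 4.0.16 and DESeq2 1.42.0 on recovered reads.

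The members and lists were chosen with earlier results of these data known. All 35 members are described. Of other lists, up to 3 called genes each way with a mean of at least 100 may be named, by size of change, and some are not reported here. Overlaps and exon lengths come from GENCODE 29 (GRCh38), and gene positions and promoters from RefSeq on GRCh38.p14. An exon length joins all annotated exons of a gene, so the level of every share per kilobase depends on it.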

Additional observations from a re-analysis of the deposited data

Results flagged for a closer look

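The response to TGFβ differed between the lines for 14 of the 35 genes, by the test of the interaction itself (limma, adjusted over all tested genes). Of all tested genes 10.6% were called positive and 6.02% negative. Values are the log2 response of Sm22mut minus that of WT. A positive difference was called for SLC2A3 (0.86), NDRG1 (0.74), HK1 (0.62), VEGFA (0.47), ADM (0.45), GPI (0.42), PFKM (0.41), HIF1A (0.40) and PFKFB3 (0.38). Of these, GPI, ADM and HIF1A fell in both lines and by less in Sm22mut. CA9 (1.32) and SLC16A3 (0.57) were called close to the threshold. A negative difference was called for PFKFB4 (-1.01), KDM3A (-0.44) and EPAS1 (-0.31). For 12 of the 14 the untreated lines were called apart as well, and that comparison shares libraries with the interaction. Such joint calls were not counted over all tested genes, so they are not read as particular to this list. NDRG1 was the gene called in opposite directions in the lines.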

How the results depend on the processing

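Of the 100 calls on the 35 genes, 80 stayed under every alternative run (25 of 29 for TGFβ in Sm22mut, 23 of 26 in WT, 13 of 22 for the untreated lines, 8 of 9 with TGFβ, 11 of 14 for the interaction), and no called value changed sign. The number lower in Sm22mut with TGFβ (3) was 5 with equal library totals, 6 after quantile normalization, 5 with DESeq2, 5 with the replicate block, and 3 to 8 when 1 library was left out. The number with a negative interaction (3) was 5 after quantile normalization and 3 to 5 when 1 library was left out. The cause was not tested. Among uncalled values, HK1 in WT was 0.0232 and EPAS1 in WT -0.025 after quantile normalization. With 1 library left out, HK1 in WT ranged from -0.112 to 0.00293, and the interactions of ENO2 and SLC2A1 from -0.0661 to 0.155 and from -0.00307 to 0.142. Without repeat 2 of both untreated groups, chosen after seeing the data, the ENO2 interaction was -0.0379 and 10 calls were lost. The labels do not say that a repeat number marks a shared batch or day, so the numbers were not taken as pairs. Over all tested genes same-numbered libraries deviated together with correlations of -0.031 to 0.129. Among the 35 genes repeat 1 was highest for 20 to 23 in every group, so these correlations do not settle whether same-numbered libraries are related. With the replicate block 16 genes were higher and 13 lower for TGFβ in Sm22mut, 12 and 15 in WT, 6 and 17 between the untreated lines, 6 and 5 with TGFβ, and 11 and 3 for the interaction. Not every library correlated best with its own number: repeat 2 of Sm22mut with TGFβ did so with repeat 3 of WT with TGFβ (0.152). All 100 calls held under the block, and PKM in WT (0.0414) and KDM3A (0.0353) and P4HA1 (0.0387) between the lines with TGFβ were called as well (adjusted p). Low genes (HK2, ANKRD37, ALDOC, CA9) have the widest errors.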
